A study of Mus musculus with 7 samples.

Results

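Axon guidance ligands and receptors were examined in RNA sequencing of mouse motor cortex. The members were chosen by gene name, as protein-coding genes of the count table that are named as class 3 to 7 semaphorins, plexins, neuropilins, Eph receptors, ephrins, Slits, Robos, netrins, Dcc or Unc5 receptors, together with Islr2. This gave 68 of the 54532 genes in the table, of which 22046 are protein-coding. They are 34 ligands (20 semaphorins, 8 ephrins, 3 Slits and 3 netrins), 33 receptors (11 plexins and neuropilins, 14 Eph receptors, 3 Robos and 5 netrin receptors) and Islr2. A further 3 names that fit were antisense genes at Plxna4 and were not members.

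The 7 libraries are 4 of cKO and 3 of WT mice. All of these mice, WT included, had received GA100 virus in both lateral ventricles on postnatal day 0, and the tissue was taken 3 months later, after behavioural testing. GA100 is a repeat of glycine and alanine of the kind made from the C9orf72 expansion of familial amyotrophic lateral sclerosis and frontotemporal dementia. The series title names TIA1, an RNA-binding protein of stress granules, but the labels do not name the deleted gene or exons, the Cre driver, the cells in which it acts, the viral promoter, the strain or the sex. No uninjected mice are among the samples, so each difference below is between genotypes of injected mice. Nothing in the labels says whether tissue of several mice was pooled.

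Axon guidance cues steer growing axons by attraction or repulsion. Semaphorins act mostly through plexins, and most of the secreted ones of class 3 also need a neuropilin. Ephrins are held on the membrane and bind Eph receptor tyrosine kinases on the neighbouring cell, Slits repel axons through Robo receptors, and netrins attract through Dcc or repel through Unc5 receptors. In the adult cortex many of these genes stay expressed in neurons and glia, where they are known for roles at synapses, vessels and myelin.

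The libraries held 15181390 to 16403202 counts in cKO and 15213977 to 16463721 counts in WT. The whole-gene count of Tia1 averaged 79.1 ± 4.29 CPM (counts scaled to a common library size) in cKO and 75.1 ± 18.4 CPM in WT (SD, n = 4 and 3), with a log2 fold change (cKO minus WT, as throughout) of 0.07 ± 0.13 (SE). Since the deleted exons are not named, this count does not check the genotype labels. cKO replicate 1 and WT replicate 1 had Xist and 0 counts of the Y-linked Ddx3y, and the other 5 libraries had Ddx3y. Leaving out these 2 gives the values within the larger sex, and the smaller one holds 1 library of each genotype. cKO replicate 3 stood apart: 5 olfactory bulb markers summed to 151 CPM there, against 3.82 to 6.09 CPM in the other cKO libraries and 4.59 to 5.28 CPM in WT, with Eomes and Tbx21 at 0 in at least 1 library.

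No member passed the test between cKO and WT after adjustment over all genes. Of the 68 members, 66 passed the filter on low counts, and 0 of these had an adjusted p under 0.05 in edgeR's quasi-likelihood test with Benjamini-Hochberg adjustment, where 0.0% of all 16308 genes tested did. The members' adjusted p-values ran between 0.669 and 0.991. At an unadjusted p under 0.05 there were 10 of 66 members (15.2%), against 7.14% of all genes. The members, Islr2 among them, were chosen with earlier results of these data known, so this share is no separate test. DESeq2 gave 13 members at that level, against 6.43% of all genes, and 0 members past the adjusted threshold, against 0.0519% of all genes, with a smallest adjusted p of 0.0665. limma-voom gave 10 members at the unadjusted level, against 6.78% of all genes, and a smallest adjusted p of 0.714. Without the filter on low counts, edgeR put 198 genes past the adjusted threshold, among them 3 of 68 members, Islr2, Ephb6 and Nrp2. The share of all genes past it in that fit is not given here, so these members are not set apart from other genes. Nrp2 was high in cKO replicate 3 alone, and in the filtered fit its log2 fold change was -0.04 without that library.

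Of those 10 members, 4 were higher in cKO (Sema6a, Unc5d, Sema6d and Sema4d), against 4.22% of all genes in that direction. The other 6 were lower in cKO (Islr2, Slit3, Ephb6, Slit1, Ephb4 and Unc5a), against 2.91% of all genes. The cKO and WT libraries did not overlap for 6 of 66 members (9.09%), where 7.38% of all genes did not overlap. Sema6a and Unc5d were higher in all cKO libraries (3.97% of all genes were), and Islr2, Slit3, Ephb6 and Plxna1 were lower in all of them (3.42% of all genes). Within the larger sex, 5 of the 10 members kept an unadjusted p under 0.05 in edgeR, and Ephb6, Ephb4, Slit1, Sema4d and Sema6d did not. The 10 were chosen by their p over all libraries, these included, so this is no separate test. The share of all genes that kept such a p is not given here. For a gene without overlap the exact two-sided permutation test over samples gives p = 0.0571, the smallest it can give here.

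The members did not lean to one side. The log2 fold change was above 0 for 35 members and below 0 for 31, with a median of 0.02, and over all genes it was above 0 for 8445 and below 0 for 7863, with a median of 0.01. Among ligands 18 of 33 were above 0, and among receptors 17 of 32.

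**Figure D1:**
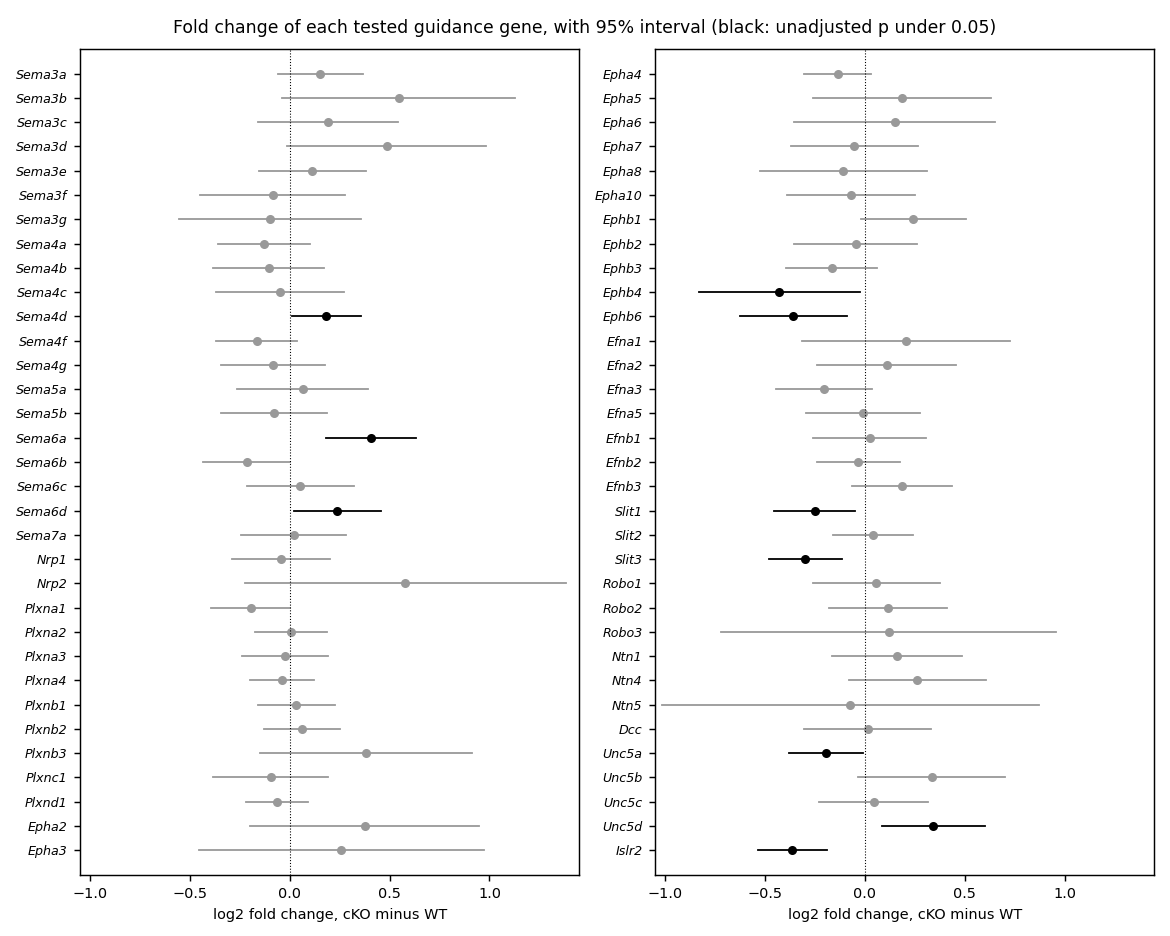
Log2 fold change (cKO minus WT) of the 66 members tested, grouped by family, with bars for the 95% confidence interval of edgeR's quasi-likelihood fit. Most intervals cross 0, and the 10 members with an unadjusted p under 0.05 lie on both sides, 4 above 0 and 6 below.

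**Figure D2:**
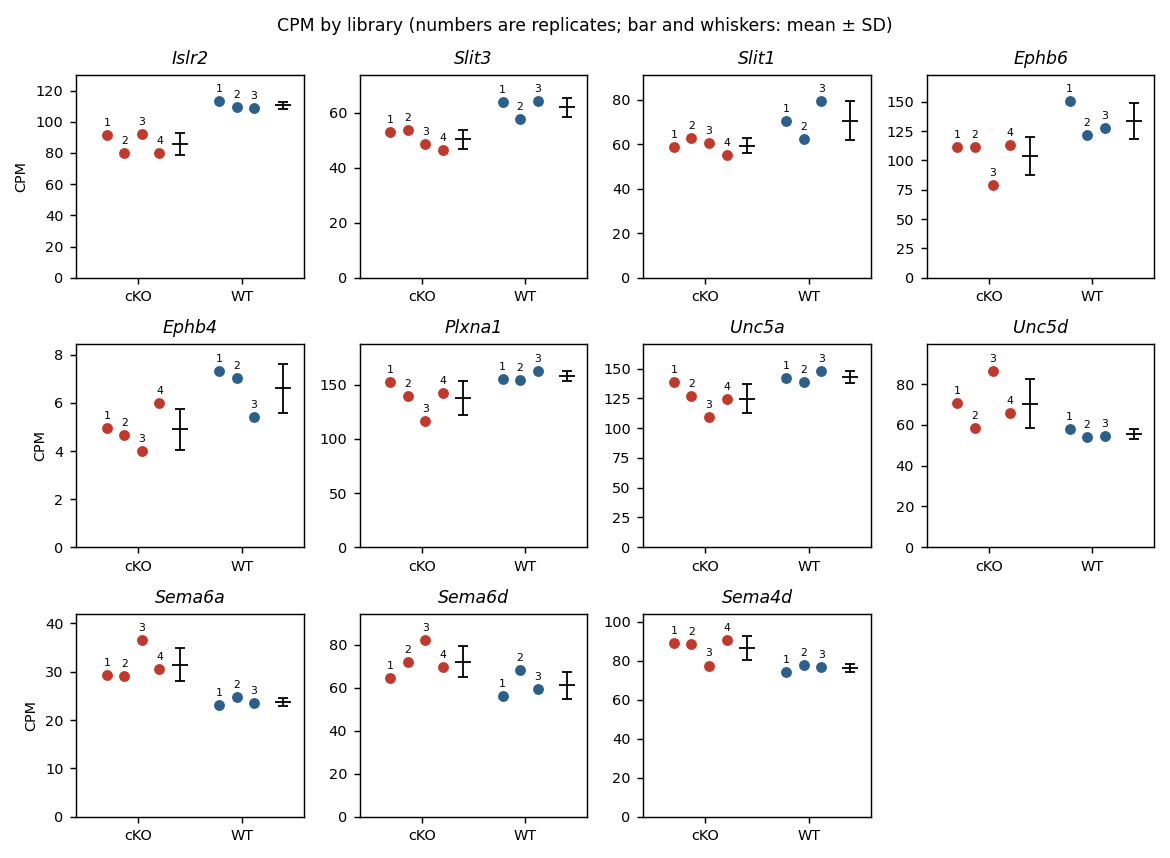
CPM of members in each library, cKO left and WT right in each panel, with the replicate number at each point and the mean ± SD drawn right of the points. The cKO and WT points do not overlap for Islr2, Slit3, Ephb6, Plxna1, Sema6a and Unc5d.

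Per length, the most abundant member was Sema7a, at 59.5 ± 7.25 FPKM over the 7 libraries (mean ± SD, authors' values). It was followed by Epha4 at 34.2 ± 2.70, Unc5a at 31.7 ± 3.19, Ephb6 at 30.8 ± 5.73, Sema6b at 27.0 ± 3.69 and Efnb3 at 24.9 ± 3.49 FPKM. The SDs of Epha4, Unc5a and Ephb6 are larger than the steps between their means, so their order is not resolved. Of the other families, Plxnd1 led the plexins at 16.8 FPKM, Slit1 the Slits at 10.8, Robo2 the Robos at 9.76 and Ntn4 the netrins at 3.39. Islr2 stood at 16.2 FPKM. At the low end were Epha1 with 0.0889 and Efna4 with 0.0857 FPKM, the pair that fell under the filter.

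Promoter windows are shown for the members that were lower in every cKO library and have an entry in the RefSeq table (GRCm38.p6, the build of mm10). Each holds 250 bases before the transcript start and 50 after it, 5′ to 3′ on the gene's strand, and capitals mark the GC box, GGGCGG, on either strand, a binding sequence of Sp factors. Islr2 is read at chr9:58204270-58204569 on the minus strand, at the start that matches the gene's 5′ end, and 2 further windows of it are not shown. Slit3 is at chr11:35121206-35121505 on the plus strand, and Ephb6 at chr6:41605261-41605560 on the plus strand. Plxna1, lower in every cKO library as well, is named only.
Islr2: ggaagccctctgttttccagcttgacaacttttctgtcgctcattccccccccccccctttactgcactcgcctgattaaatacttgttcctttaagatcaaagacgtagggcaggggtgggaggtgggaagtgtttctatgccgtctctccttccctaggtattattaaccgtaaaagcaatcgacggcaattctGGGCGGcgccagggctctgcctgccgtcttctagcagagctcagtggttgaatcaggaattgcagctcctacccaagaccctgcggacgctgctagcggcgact
Slit3: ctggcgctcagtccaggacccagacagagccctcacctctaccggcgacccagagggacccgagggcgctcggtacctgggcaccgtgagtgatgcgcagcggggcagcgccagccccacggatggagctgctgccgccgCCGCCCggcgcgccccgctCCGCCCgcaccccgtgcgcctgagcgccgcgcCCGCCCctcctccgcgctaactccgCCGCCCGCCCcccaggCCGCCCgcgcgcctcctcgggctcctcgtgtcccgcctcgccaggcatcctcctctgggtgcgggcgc
Ephb6: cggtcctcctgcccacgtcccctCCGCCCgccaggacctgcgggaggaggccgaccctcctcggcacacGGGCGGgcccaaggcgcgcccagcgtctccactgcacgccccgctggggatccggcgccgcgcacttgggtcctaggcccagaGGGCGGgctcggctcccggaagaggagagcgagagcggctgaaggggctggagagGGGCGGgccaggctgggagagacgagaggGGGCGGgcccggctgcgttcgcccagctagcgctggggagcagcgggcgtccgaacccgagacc
The Islr2 window holds a single GC box, upstream of the start, while those of Slit3 and Ephb6 hold several. The GC box was in 53 of the 76 windows of the 58 members with an entry (69.7%), against 35.7% of all 32851 windows. A match is a description of the letters and is no evidence of binding.

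All 3 ligands higher in cKO at an unadjusted p under 0.05 were semaphorins. Sema6a, a transmembrane semaphorin that binds plexin-A receptors, had 29.4, 29.2, 36.5 and 30.6 CPM in cKO replicates 1 to 4, against 23.0, 24.7 and 23.4 CPM in WT replicates 1 to 3. Every cKO library lay above every WT library. Fitted over all libraries, the log2 fold change was 0.41 ± 0.10 (95% interval 0.18 to 0.63, edgeR adjusted p = 0.679). Without cKO replicate 3 it was 0.32, and within the larger sex 0.41.

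Sema6d, of the same class, had 64.6, 71.8, 82.1 and 69.7 CPM in the cKO libraries, against 55.9, 68.2 and 59.1 CPM in WT. The groups overlapped, since WT replicate 2 was above cKO replicate 1. Its log2 fold change was 0.24 ± 0.10 (edgeR adjusted p = 0.694). Sema6b went the other way in value, at -0.22 ± 0.10 (edgeR adjusted p = 0.696), and was -0.09 without WT replicate 1, its highest library.

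Sema4d, a membrane semaphorin that binds plexin-B receptors, had 89.2, 88.7, 77.5 and 90.5 CPM in cKO, against 74.0, 77.9 and 76.6 CPM in WT. Only cKO replicate 3 lay within the WT range. Its fitted log2 fold change was 0.18 ± 0.08 (edgeR adjusted p = 0.694). It was the single class 4 member above 0, of 6, and the median over that class was -0.09. For the class 3 semaphorins, which are secreted, 5 of 7 values were above 0 and none reached an unadjusted p under 0.05.

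Sema3d, one of these, had 9.77, 11.9, 21.2 and 12.03 CPM in cKO, against 10.4, 9.88 and 9.05 CPM in WT. cKO replicate 3 was far above the other libraries, and the log2 fold change of 0.48 ± 0.23 became 0.19 without it. Sema3b, a low gene, had a log2 fold change of 0.54 ± 0.27 (edgeR adjusted p = 0.704). Sema7a, which is anchored to the membrane by a lipid and binds Plxnc1 and integrins, had 230.2, 202, 150.2 and 210.5 CPM in cKO, against 190.4, 189 and 206 CPM in WT. The groups overlapped and the fold change, 0.02 ± 0.12, was near 0.

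The receptors of semaphorins gave no member with an unadjusted p under 0.05. Plxna1, a receptor for class 3 semaphorins with neuropilins, had 153, 139, 116 and 142 CPM in cKO, against 155, 154 and 163 CPM in WT. All cKO libraries were lower, the nearest being cKO replicate 1. The log2 fold change was -0.19 ± 0.09 (edgeR adjusted p = 0.696), and it was -0.13 without cKO replicate 3. Plxnd1, the receptor of Sema3e, had 124, 119, 125 and 113 CPM in cKO, against 131, 126 and 122 CPM in WT. The groups overlapped, at a log2 fold change of -0.07 ± 0.07.

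Nrp2, the coreceptor of Sema3f, had 14.5, 18.1, 51.1 and 16.2 CPM in cKO, against 18.7, 14.6 and 16.8 CPM in WT. Of the cKO libraries only replicate 3 lay above the WT range. The log2 fold change, 0.58 ± 0.37, became -0.04 without that library. Plxnb3 had 30.0, 32.7, 14.1 and 27.4 CPM in cKO, against 15.0, 24.3 and 20.7 CPM in WT, a log2 fold change of 0.38 ± 0.24. It was 0.58 without cKO replicate 3, 0.25 without cKO replicate 2 and 0.21 without WT replicate 1. Here cKO replicate 3 and WT replicate 1 were the lowest libraries.

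Both Slits with lower values in cKO are secreted repellents. Slit3 had 52.9, 53.7, 48.8 and 46.4 CPM in cKO, against 63.8, 57.9 and 64.3 CPM in WT. The groups did not overlap. Its log2 fold change was -0.30 ± 0.08 (95% interval -0.48 to -0.11, edgeR adjusted p = 0.679). It was -0.29 without cKO replicate 3 and -0.30 within the larger sex.

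Slit1 had 58.9, 62.8, 60.7 and 55.0 CPM in cKO, against 70.4, 62.2 and 79.4 CPM in WT. cKO replicate 2 was just above WT replicate 2, so the groups overlapped. Fitted over all libraries, the log2 fold change was -0.25 ± 0.09 (edgeR adjusted p = 0.694). Without WT replicate 3 it was -0.16. Slit2 lay between 35.4 and 42.8 CPM in cKO and between 35.3 and 37.7 CPM in WT.

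None of the 3 Robo receptors reached an unadjusted p under 0.05. Robo2 had 149, 167, 225 and 147 CPM in cKO, against 161, 142 and 173 CPM in WT. The libraries overlapped, with cKO replicate 3 the highest. Its log2 fold change of 0.12 ± 0.14 was -0.05 without that library. Robo3, which is known for letting commissural axons cross the midline, had 21.9, 20.4, 5.48 and 17.4 CPM in cKO, against 9.18, 22.7 and 13.2 CPM in WT.

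Among the Eph receptors, the EphB class gave both members with an unadjusted p under 0.05. Ephb6, whose kinase domain is inactive, had 111, 112, 79.2 and 113 CPM in cKO, against 151, 122 and 127 CPM in WT. The groups did not overlap, and cKO replicate 3 was the lowest by far. Its fitted log2 fold change was -0.36 ± 0.12 (95% interval -0.63 to -0.09, edgeR adjusted p = 0.679). It was -0.26 without cKO replicate 3 and -0.30 within the larger sex.

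Ephb4, the ephrin-B2 receptor known from vessels, had 4.94, 4.66, 3.99 and 6.01 CPM in cKO, against 7.34, 7.04 and 5.42 CPM in WT. The groups overlapped at cKO replicate 4. Its log2 fold change was -0.43 ± 0.18 (edgeR adjusted p = 0.694). Of the EphB receptors 4 of 5 were below 0, with a median of -0.17. The exception was Ephb1, with 61.9, 65.7, 47.3 and 64.0 CPM in cKO, against 46.5, 47.6 and 57.6 CPM in WT. Its log2 fold change was 0.24 ± 0.12 (edgeR adjusted p = 0.707). That value was 0.33 without cKO replicate 3, and ran between 0.18 and 0.35 with a single library left out.

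The EphA receptors were split, with 4 of 8 above 0. Epha4, a receptor for both ephrin classes, had 265, 278, 253 and 266 CPM in cKO, against 309.8, 265 and 300.1 CPM in WT, with a log2 fold change of -0.14 ± 0.08, which was -0.21 without WT replicate 2. Epha3, Epha5 and Epha6 were set apart by cKO replicate 3. Epha5 had 190.4 CPM there, against 96.4 to 103 CPM in the other cKO libraries and 97.2 to 116 CPM in WT. None of the 7 ephrins tested had an unadjusted p under 0.05. Efnb3, the most abundant ephrin, had 73.8, 103, 74.3 and 84.0 CPM in cKO, against 69.0, 76.4 and 75.7 CPM in WT, with a log2 fold change of 0.19 ± 0.11 that was 0.06 without cKO replicate 2.

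Netrins gave no member with an unadjusted p under 0.05, and their receptors gave 1 in each direction. Unc5d, an Unc5 family receptor, had 70.8, 58.6, 86.7 and 65.9 CPM in cKO, against 58.2, 53.9 and 54.5 CPM in WT. All cKO libraries were higher, with cKO replicate 2 and WT replicate 1 nearly level. The log2 fold change was 0.34 ± 0.12 (edgeR adjusted p = 0.679), and it was 0.22 without cKO replicate 3, over 1.5 times smaller.

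Unc5a had 139, 127, 109 and 125 CPM in cKO, against 142, 138 and 148 CPM in WT. cKO replicate 1 lay within the WT range, by a small step. Its log2 fold change was -0.19 ± 0.09 (edgeR adjusted p = 0.696). Unc5b had 37.0, 48.2, 27.0 and 41.7 CPM in cKO, against 25.6, 33.9 and 32.0 CPM in WT. Its log2 fold change of 0.33 ± 0.17 was 0.20 without cKO replicate 2, 0.22 without WT replicate 1 and 0.46 without cKO replicate 3. Ntn4, a secreted laminin-related netrin, had 13.1, 12.1, 17.5 and 12.1 CPM in cKO, against 11.8, 12.5 and 9.91 CPM in WT, with a log2 fold change of 0.26 ± 0.16, which was 0.12 without cKO replicate 3 and 0.17 without WT replicate 3.

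Islr2 had the smallest p of all members. It was added to the families by its own name, and the members were chosen with earlier results of these data known. Its rank is therefore no separate support. It encodes a transmembrane protein with leucine-rich repeats, also called Linx, that associates with receptor tyrosine kinases of developing axons in mice. It had 91.8, 80.1, 92.4 and 79.7 CPM in cKO, against 113, 109 and 109 CPM in WT, with means of 86.0 ± 7.02 CPM in cKO and 111 ± 2.42 CPM in WT (SD, n = 4 and 3). The groups did not overlap, and the nearest libraries were cKO replicate 3 and WT replicate 3. Fitted over all libraries, the log2 fold change was -0.36 ± 0.08 (95% interval -0.54 to -0.19, edgeR adjusted p = 0.669). It was -0.41 without cKO replicate 3 and -0.38 within the larger sex.

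Islr2 lies on chromosome 9, bases 58196297 to 58204319 of mm10, and shares ground with Islr on the same strand. Reads in the shared part may be counted for either gene or for neither, as the setting is not given. The value of Islr2 is uncertain to that extent. Islr had 1254 counts over all libraries, 11.8% of those of Islr2. The sum of both genes was 98.6, 86.5, 114 and 90.3 CPM in cKO, against 127, 122 and 118 CPM in WT, and still did not overlap. Reads counted for neither gene would be missing from this sum too.

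**Figure D3:**
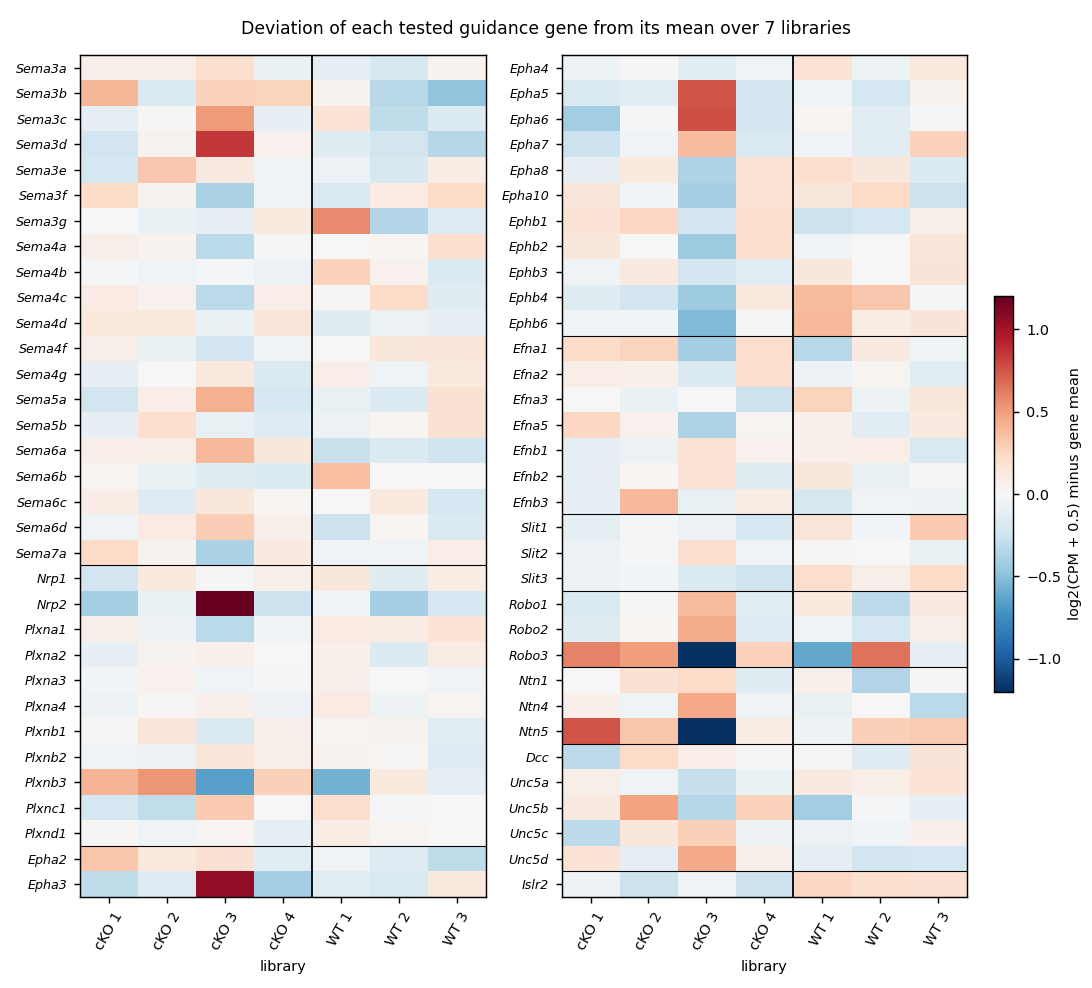
Log2(CPM + 0.5) of each tested member minus its mean over the 7 libraries, cKO libraries left of the vertical line and WT right, families divided by horizontal lines, red above and blue below the mean, with colours saturated at the ends of the scale. cKO replicate 3 is the highest or lowest library for 46 of 66 members.

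cKO replicate 3 was the highest or lowest library for 46 of 66 members (69.7%), against 48.9% of all genes. It was at least 1.5 times the highest other library for 5 members (7.58%, against 1.27% of all genes), namely Epha3, Epha5, Epha6, Nrp2 and Sema3d. For Robo3 and Ntn5 it was at most the lowest other library divided by 1.5 (3.03%, against 2.72%). Without it 18 of 66 members changed sign, and leaving out any other single library turned 3 to 8. The share of all genes that changed sign is not given here, so these counts are not set apart from the other genes. The olfactory bulb markers were high in this library alone, and their part in these results was not tested.

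Marker lists of other cell types differed between libraries, and only the excitatory neuron sums did not overlap between the genotypes. The 10 markers of myelinating oligodendrocytes summed to 6939, 8331, 4198 and 7362 CPM in cKO, against 3860, 5898 and 5390 CPM in WT. All 10 had log2 fold changes above 0, 4 of them with an unadjusted p under 0.05 in edgeR. The 10 excitatory neuron markers summed to 4969, 4288, 4140 and 4731 CPM in cKO, against 5546, 5224 and 5003 CPM in WT. Every cKO sum was lower than every WT sum. Of the 10 markers 3 had log2 fold changes above 0, and 3 were lower at an unadjusted p under 0.05 in edgeR. No marker of either of these lists was at 0 in a library. Markers of striatal neurons summed to 1182 to 2070 CPM in cKO and 1155 to 1457 CPM in WT (8 of 8 above 0), and those of inhibitory neurons to 927 to 1324 CPM in cKO and 850 to 945 CPM in WT (6 of 8 above 0). Meningeal markers summed to 32.4 to 67.2 CPM in cKO and 29.9 to 69.6 CPM in WT (3 of 7 above 0), and choroid plexus markers to 17.3 to 173 CPM in cKO, the highest in replicate 4, and 13.4 to 21.8 CPM in WT, with Folr1 and Kcne2 at 0 in at least 1 library. The sums of astrocyte, microglial, endothelial and oligodendrocyte precursor markers overlapped between the genotypes. The part of these differences in the members' values was not tested, and in bulk tissue fewer cells of a type and less RNA per cell cannot be told apart.

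**Figure D4:**
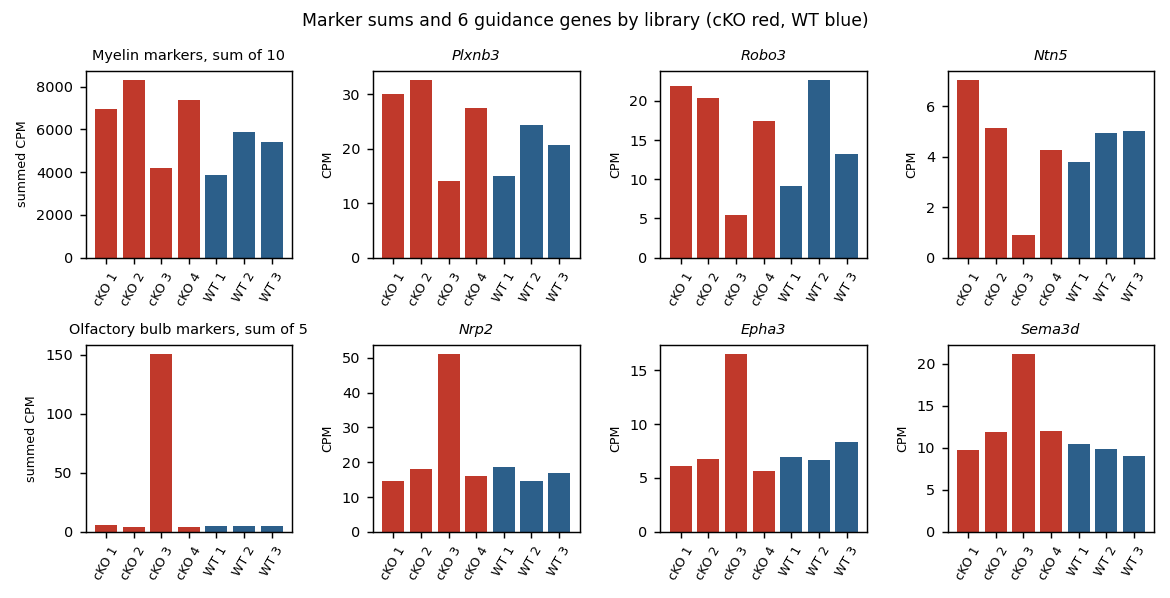
Summed CPM of myelin and olfactory bulb markers and CPM of 6 members, 1 bar a library, cKO red and left, WT blue and right. Robo3, Ntn5 and Plxnb3 are lowest in cKO replicate 3, and Nrp2, Epha3 and Sema3d are highest there, where the olfactory bulb sum is 151 CPM.

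Member genes are long. The 66 tested members had a median span of 62.8 kb on the genome, against 25.8 kb for the 14081 protein-coding genes tested. In cKO replicate 3, the deviation of a member (its log2 value there minus its mean in the other 6 libraries) was higher for genes of larger span, with a Spearman rho of 0.51 across the 66 members and of 0.17 across the protein-coding genes. The median deviation there was 0.30 on the log2 scale for the 32 members of 100 kb or more, and -0.23 for the 34 shorter ones. WT replicate 2 had a rho of -0.53 across the members (-0.13 across the protein-coding genes) and cKO replicate 1 one of -0.44 (-0.19). Across the protein-coding genes, cKO replicate 2 (0.24) and WT replicate 1 (-0.21) lay farther from 0 than cKO replicate 3, as did cKO replicate 1. Across the members, cKO replicate 2 had a rho of 0.05 and WT replicate 1 one of -0.17. Each library was set against the other 6, so high values in cKO replicate 3 lower the deviations of the others. The rhos of different libraries are therefore not separate observations. These correlations are across genes of one library, which share its depth and are not independent replicates.

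**Figure D5:**
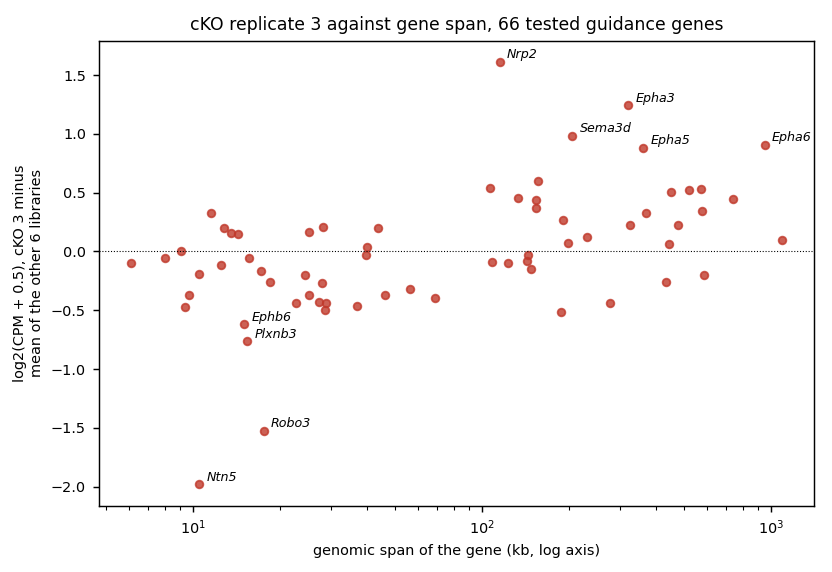
Log2(CPM + 0.5) of each of the 66 tested members in cKO replicate 3 minus its mean in the other 6 libraries, against the genomic span of the gene in kb on a log axis, 1 point a gene. Of the 32 members of 100 kb or more 23 lie above 0, and of the 34 shorter ones 9 do.

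Genes of the same pathways outside these families were read from lists of cytoplasmic effectors and of other cues and receptors. None of the 51 effectors or the 27 other cues and receptors had an adjusted p under 0.05. Of the effectors, 6 were higher and 0 lower in cKO at an unadjusted p under 0.05 in edgeR (11.8% in all), where 4.22% of all genes were higher and 2.91% lower. Chn2, a Rac-inactivating chimaerin, averaged 51.8 ± 2.38 CPM in cKO and 41.2 ± 4.32 CPM in WT (SD, n = 4 and 3), a log2 fold change of 0.33 ± 0.09. The Rac effector kinase Pak2 was at 0.27 ± 0.08 and the exchange factor Vav3 at 0.38 ± 0.14. Chn2, Pak2 and Vav3 were among the 4 of 51 effectors without overlap between groups (7.84%), where 7.38% of all genes did not overlap. Srgap1, which binds Robo receptors, was at 0.46 ± 0.16 and the Rac activator Dock1 at 0.25 ± 0.10.

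Of the other cues and receptors, 1 was higher and 5 were lower in cKO at an unadjusted p under 0.05 in edgeR (22.2% in all), where 4.22% of all genes were higher and 2.91% lower. Ptch1, the Hedgehog receptor, was at 0.19 ± 0.08. Dscam, an adhesion molecule that can bind netrin, was at -0.19 ± 0.07, and the chemokine Cxcl12 was at -0.23 ± 0.08 (-0.15 without WT replicate 1). These 2 of the 27 did not overlap between groups (7.41%, against 7.38% of all genes). The Nogo receptor Rtn4r was at -0.24 ± 0.10, its coreceptor Lingo1 at -0.25 ± 0.10 and the Hedgehog coreceptor Boc at -0.29 ± 0.13. The median log2 fold change was 0.03 over the effectors and -0.02 over the other cues and receptors, against 0.01 over all genes.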

How the data were processed

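Total RNA of motor cortex was sequenced in 7 libraries, 4 cKO and 3 WT. The authors deposited raw read counts per gene, made with featureCounts 1.5.0-p3 on mm10, per the submitters' processing notes, which also name DESeq2 1.20.0. Aligner, annotation release and strand setting: not given in the sources used here. The labels' protocol describes no strand marking, so reads of overlapping genes cannot be told apart by strand. The authors also deposited FPKM per gene, used here for levels between genes.

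Counts were tested with edgeR 4.0.16 (R 4.3.3): TMM factors, its expression filter, the quasi-likelihood F test on genotype, and Benjamini-Hochberg adjustment over 16308 genes. SE is the absolute log2 fold change divided by the square root of F. CPM use TMM-scaled library sizes. limma 3.58.1 and DESeq2 1.42.0 were alternatives, 22 in all. FPKM alternatives used log2(FPKM + 1) or log2(FPKM + 0.1), with a mean of at least 0.5. The procedure was tested on simulated data. These had the same dispersion for every gene, no sex difference, no outlying library and larger fold changes than those of the members. That test therefore does not show how the procedure does on samples like these. Nothing says that the libraries share no mouse or preparation, so p-values measure the spread between these samples. The counts limit precision, and intervals cover the spread between libraries.

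The members, the marker lists and the pathway lists were chosen with earlier results of these data known. Values in every library are given for members with an unadjusted p under 0.05, members without overlap, the member with the highest mean FPKM of each family and Islr2, and genes of the pathway lists are named at an unadjusted p under 0.05, except 1 that is not reported here. Sema3b, Sema3d, Sema6b, Slit2, Nrp2, Plxnb3, Robo3, Epha3, Epha5, Epha6, Ntn5, Ephb1 and Unc5b were added after their values were seen. Deviations of same-numbered cKO and WT libraries correlated at 0.110, 0.128 and 0.122, each over 0.1. However, cKO replicate 4 with WT replicate 2 (0.210) and cKO replicate 3 with WT replicate 1 (0.129) correlated more. These values therefore do not establish that the replicate numbers in the titles pair the samples. The main fit has no pairing, and pairing by number was used only as an alternative, the replicate block. cKO replicate 4 has no WT partner.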

Additional observations from a re-analysis of the deposited data

Results flagged for a closer look

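Of the 66 members tested, 7 had a library far from the other 3 of the cKO group, and it was cKO replicate 3 each time. Chance flags about 1 in 20 groups. The share of all genes flagged in this way is not given here, and cKO replicate 3 was the highest or lowest library for 48.9% of all genes. Epha3 was highest there at 16.5 CPM, Epha5 at 190.4 CPM and Nrp2 at 51.1 CPM. Ephb6 was lowest there at 79.2 CPM, Efna1 at 2.37 CPM, Sema4c at 9.40 CPM and Sema4d at 77.5 CPM. Of the flagged receptors, Epha3, Epha5 and Nrp2 were highest there and Ephb6 was lowest. Efna1 is a ligand of Eph receptors, and both Sema4 genes are ligands of plexin-B receptors. The WT group of 3 was not examined in this way.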

How the results depend on the processing

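Genes past the adjusted threshold numbered 0 in the main edgeR result, 198 with no filter on low counts, 6 with DESeq2, 3 on log2(FPKM + 1) without a filter, 2 with the replicate block, 1 without WT replicate 1 and cKO replicate 3, and 0 to 3 with a single library left out. Members past it numbered 0 in all of these but the unfiltered counts, where 3 passed: Ephb6 at -0.37 (adjusted p = 0.0222), Islr2 at -0.37 (adjusted p = 0.0233) and Nrp2 at 0.57 (adjusted p = 0.00458), all in edgeR. The cause was not tested, and the share of all genes past the threshold without the filter is not given here. Members at an unadjusted p under 0.05 numbered 16 there (6.68% of all genes), and 6 to 13 with a single library left out (3.34% to 9.91% of all genes), with 6 without WT replicate 1 (3.34% of all genes). Of the 10 members at that level, 5 stayed under it without WT replicate 1. With the replicate block, the pairing by number, 7 members were at that level (7.52% of all genes), against 10 without it (Slit1, Unc5a and Sema4d were not), and it changed no member's adjusted call. The pathway genes named were put through the same alternatives, a step chosen after seeing the data: none changed sign, and Srgap1 passed without the filter (0.45, edgeR adjusted p = 0.0303).

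The members' median was 0.058 without WT replicate 1 and cKO replicate 1, -0.044 without cKO replicates 2 and 3, and -0.026 to 0.019 with a single library left out. Fewer libraries overlap less, in all genes too. Members without overlap numbered 16 of 66 without WT and cKO replicate 1 (22.0% of all genes), 17 without WT replicate 1 and cKO replicate 3 (20.7% of all genes), 23 without cKO replicates 2 and 3 (22.8% of all genes), and 9 to 15 with a single library left out (9.86% to 19.6% of all genes).

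Sema7a turned to -0.0036 on log2(FPKM + 1) with and without a filter, -0.0039 on log2(FPKM + 0.1), -0.029 with the replicate block and -0.079 without WT and cKO replicate 1, and ran between -0.068 and 0.125 with a single library left out. Robo2 was -0.028 without WT replicate 1 and cKO replicate 3, -0.10 without cKO replicates 2 and 3, and -0.046 to 0.18 with a single library left out. Nrp2 was -0.12 without cKO replicates 2 and 3, and -0.045 to 0.76 with a single library left out.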

Other observations

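Islr2 is 233 kb from Sema7a on chromosome 9, and their log2 fold changes were -0.36 and 0.02.

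The promoter windows of the members were rich in G and C, with a median of 64.0% against 52.7% over all windows, and a median of 18.5 CpG against 7.0. TATAAA was in 2.63% of member windows against 13.6% of all, CCAAT in 27.6% against 37.4%, and the heat shock element core GAANNTTC in 1.32% against 7.86%, both strands searched.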
